A study of Homo sapiens with 197 samples.

Results

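Kinases that answer to calcium and calmodulin, and kinases that answer to the cell's energy charge, were examined within a screen of genetically activated kinases in IMR90 cells, a line of normal human lung fibroblasts. The wells were chosen by the name of the kinase, with earlier results of these data known. A lane entered the set if its kinase name began with CAMK, PRKAA, PRKAG, PRKAB, NUAK, PIM or STK17, or was CALM2. The rule found 12 lanes, which are 6.56% of the kinase lanes used here and 6.09% of all lanes of the series. The CAMK arm held 6 wells (CAMK2B, CAMKK1, CAMKV, CAMK1G, CAMK2D and CAMK4). The AMPK arm held 3 wells (PRKAA1, PRKAG2 and NUAK2), and PIM1, STK17B and CALM2 made up the other 3. No well carried a PRKAB kinase. The 12 were set against the wells of all other kinases, after the lanes of HK1 and the second lanes of PIK3CG and PTK2 had been left out.

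In each well, IMR90 cells had been infected with a retrovirus that carried 1 kinase fused to a myristoylation signal, which draws the protein to membranes, and a Flag tag. RNA was collected 4 days after infection, and 75 probes were counted in each lane on a Nanostring instrument, which counts RNA molecules without amplification. The probes cover 42 genes that the paper calls tissue-restricted, most of them specific to testis, some to placenta and a few of other kinds. There are also 15 further rows and 4 housekeeping genes, and each lane carried 6 spike-in and 8 negative probes. The IMR90 control lanes are described by their labels only as IMR90 cells, and while the methods speak both of wells with an empty vector and of cells without infection, the labels do not say which these lanes are. Each of the 12 had 1 well and 1 lane, so the spread between wells holds the differences between kinases, cultures and lanes together, and no value of a single well has a replicate check.

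Calmodulin is a small protein that binds calcium and then switches on the kinases named after it. CAMKK1 phosphorylates and activates CAMK1 and CAMK4, whereas CAMK2B and CAMK2D are isoforms of CaMKII, which holds its own activity after a calcium pulse. CAMK1G is a gamma isoform of CaMKI. CAMKV resembles these kinases but lacks catalytic activity. CALM2 encodes calmodulin itself and is no kinase. AMPK is a trimer that is activated when ATP falls. PRKAA1 encodes a catalytic alpha subunit and PRKAG2 a regulatory gamma subunit that binds adenine nucleotides, while NUAK2 is a kinase related to AMPK. PIM1 is a proto-oncogene kinase that stays active without calcium, and STK17B is a kinase of the death-associated family. CaMKs are known to phosphorylate CREB, a transcription factor that binds a site whose core is TGACG.

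B2M, which encodes the light chain of MHC class I, is shown here by the 250 bases before its transcription start, taken from RefSeq (GRCh38.p14). It was picked after its values had been seen, as the abundant gene in which all 6 CAMK wells lay below the median of the other kinase wells. Capitals mark TGACG. The window is chr15:44711267-44711516, on the plus strand.
B2M: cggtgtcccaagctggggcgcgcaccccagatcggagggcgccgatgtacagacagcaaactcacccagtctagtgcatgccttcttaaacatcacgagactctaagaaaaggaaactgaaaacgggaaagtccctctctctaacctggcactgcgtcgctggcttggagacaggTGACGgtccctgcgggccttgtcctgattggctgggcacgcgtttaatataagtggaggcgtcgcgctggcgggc
The window held 1 match with both strands searched (TGACG or CGTCA), which began 75 bases before the start. A match stands in 21.2% of all 35116 RefSeq windows of this length, and the longer palindrome TGACGTCA, which overlaps it and is not in this window, in 1.65%. The match is a description of these letters and not evidence of binding.

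Total counts per lane ranged from 98473 to 209506 in the 12 wells and from 29629 to 340763 in the other kinase wells. Counts scaled to the positive controls and to 3 housekeeping genes (PGK1, TBP, TUBB2A) are called normalized counts below. The negative-control level of a lane is the mean + 2 SD of its 8 negative probes, in raw counts. It lay between 15.3 and 32.3 in 10 of the wells, and was 47.5 in the CAMKV well and 50.7 in the STK17B well. In these wells 1 negative probe, NEG_H, had 52 and 53 raw counts, against 1 to 11 in the other 10 wells. The normalizers themselves varied. With positive controls only, CAMK2B had the lowest PGK1 value (5059) and the lowest TBP value (246) of all kinase lanes used, and its scaling factor of 1.63 was the highest of the 12. The effect of these differences on the results below was not tested beyond the alternatives named there. Counting intervals cover counting error only.

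Of the 58 rows tested (57 endogenous rows and B2M), 16 were above the negative-control level in all 12 wells, 20 in 1 to 11 wells and 22 in none. Only 3 of the 42 tissue-restricted rows were above it in all 12, namely ADAM12, ALAS1 and ATAD2. The number of tissue-restricted rows above the level was between 3 and 6 in 10 of the wells, 14 in CAMK2D and 17 in NUAK2. Wells of other kinases had 3 to 23 such rows (median 6). The panel held no marker of fibroblasts by which the cell type could be checked.

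The delivered kinase was looked for first, and the search put the names of 15 rows in doubt. These rows follow the tissue-restricted genes in every lane's file, from MyrFlag, NeoR and PuroR through DNMT1, ITPR2, KCNA1, PLA2R1, PPM1D, Tet1, Tet2, Tet3 and UHRF1 to ZBTB33, ZBTB38 and ZBTB4. The row named MyrFlag, after the tag that every construct carries, did not separate kinase wells from other lanes. Its normalized count was 569 to 795 in the CAMK wells, 615 to 670 in the AMPK wells and 655 to 805 in PIM1, STK17B and CALM2, against 665 and 714 in the IMR90 control lanes. In the 6 lanes of reference RNA, a mixture from human cancer cell lines, it was 1196 to 1534. The row named ZBTB33, by contrast, had 709 to 58665 in the 12 wells, 8.75 and 18.3 in the controls and 9.53 to 31.7 in the reference RNA. The row named ZBTB38 had 1591 and 7039 in the controls and 4.201 to 8.147 in the reference RNA. With the 15 names moved up by 3 rows and the first 3 put at the end, the name MyrFlag would stand at the row given as ZBTB33, NeoR at ZBTB38 and ZBTB33 at Tet2. Whether the names were moved was not tested, and the files hold no probe sequence to settle it. The 15 rows are therefore called here by the name in the files, with no reading as that gene. The fits, which use each row's own counts, do not depend on the names.

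The row named ZBTB33 was above the negative-control level in all 12 wells and in neither control lane, as was already known from these data when it was chosen. In the CAMK arm its levels were close together. They were 27199 in CAMK2B, 33890 in CAMKK1, 33061 in CAMKV, 39270 in CAMK1G, 34717 in CAMK2D and 26161 in CAMK4, all above the median of 22318 over the other kinase wells. The AMPK arm was wide, with 7823 in PRKAA1, 1993 in PRKAG2 and 58665 in NUAK2. In the remaining wells it was 36795 in PIM1, 5507 in CALM2 and 709 in STK17B, the sixth lowest of all kinase wells used. On the log2 scale the SD was 0.22 in the CAMK wells (n = 6) and 2.45 in the AMPK wells (n = 3). Neither arm differed from the other kinase wells in this row by the test across all rows, and STK17B had Z-scores of -2.91 for ZBTB33 and -2.84 for ZBTB38.

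The row named ZBTB38 followed the ZBTB33 row in every well of the set. The ratio of its raw count to that of ZBTB33 was 0.431 to 0.636 in the 12 wells, with a median of 0.544, and 0.312 to 0.730 in the other kinase wells, with a median of 0.554. In the 2 control lanes it was 181.8 and 384.4, since ZBTB38 was counted there at 1591 and 7039 normalized counts and ZBTB33 was not. In the set, STK17B (406), PRKAG2 (960), CALM2 (2943) and PRKAA1 (4625) were below the higher control lane in ZBTB38, and the CAMK wells (12402 to 21559) were above both. The plot of the ZBTB33 row against the ZBTB38 row shows the CAMK wells in 1 cluster and the AMPK wells far apart along the line.

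**Figure D1:**
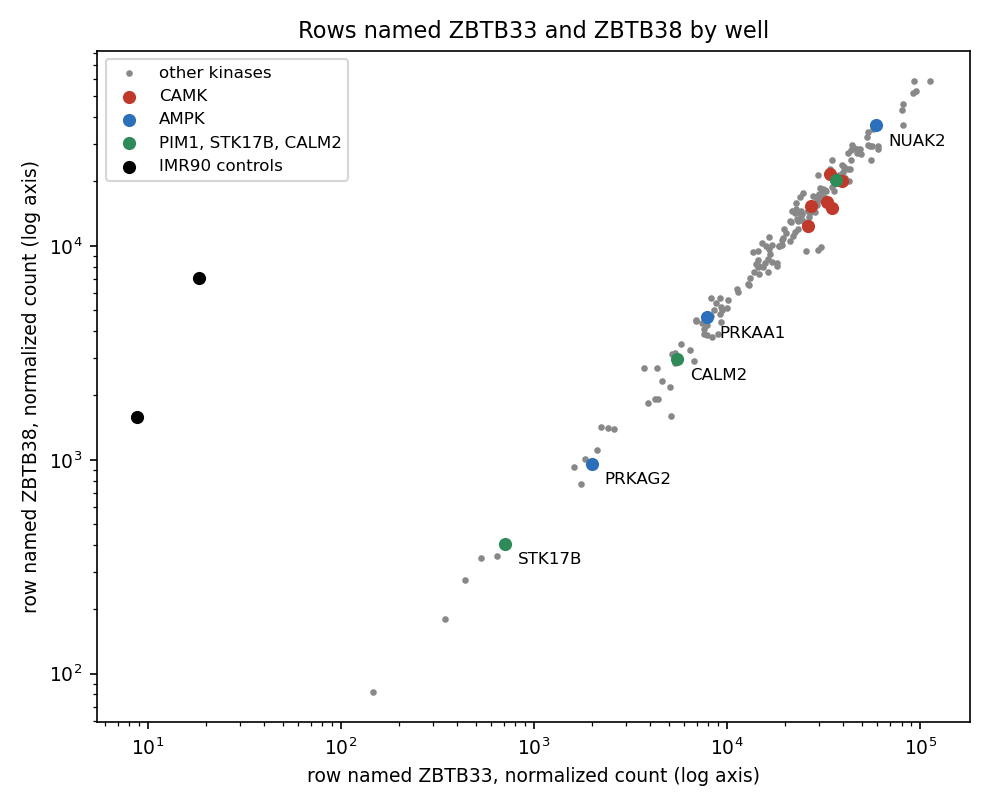
Normalized counts of the rows named ZBTB33 (x axis) and ZBTB38 (y axis), names in doubt, both on log axes, with 1 point per well: CAMK (red), AMPK (blue), PIM1, STK17B and CALM2 (green), other kinases (grey) and the 2 IMR90 control lanes (black). The 6 CAMK wells lie between 26161 and 39270 on the x axis, STK17B, PRKAG2, CALM2 and PRKAA1 lie lower, NUAK2 lies higher, and the controls lie apart at 8.75 and 18.3.

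The first comparison asked whether wells of this kinase group as a whole differed from wells of other kinases. Of 58 rows, 2 passed an adjusted p of 0.05 in edgeR's quasi-likelihood test (3.45%), both higher in the 12 wells, and 7 rows (12.1%) had an unadjusted p under 0.05. The rows were RBM46, an RNA-binding protein of germ cells, and BRDT, a bromodomain protein of spermatogenesis. Both were counted below the negative-control level in every one of the 12 wells and in every other kinase well.

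RBM46 had raw counts of 3 in CAMK2B, 6 in CAMKK1, 14 in CAMKV, 3 in CAMK1G, 12 in CAMK2D, 5 in CAMK4, 8 in PRKAA1, 6 in PRKAG2, 10 in NUAK2, 18 in STK17B, 8 in PIM1 and 7 in CALM2. The highest counts were in STK17B and CAMKV, the wells with the highest negative-control levels. The other kinase wells had 1 to 23 counts with a median of 5, so the groups overlapped. The fitted log2 difference was 0.67 ± 0.20 (SE), a 1.59-fold difference with an interval (95%, normal approximation) of 1.21 to 2.09, and the adjusted p was 0.0308 (edgeR).

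BRDT had raw counts of 1 in CAMK2B, 3 in CAMKK1, 6 in CAMKV, 5 in CAMK1G, 3 in CAMK2D, 9 in CAMK4, 6 in PRKAA1, 8 in PRKAG2, 4 in NUAK2, 9 in STK17B, 2 in PIM1 and 4 in CALM2. The other kinase wells had 0 to 10 with a median of 3, and the control lanes 3 each. High and low wells were found in each arm. The log2 difference was 0.67 ± 0.20 (SE), 1.60-fold with an interval of 1.21 to 2.10, with an adjusted p of 0.0308 (edgeR).

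These calls held under some settings only. There were 2 calls with DESeq2, with all 4 housekeeping genes, without the PIP5K2A lane, and without CAMK2B, CAMKK1, PIM1 or CALM2. No row was called by limma, with TMM or median-of-ratios factors, with positive controls only, or with blocks of 12 consecutive sample numbers in the model. Neither row was called without STK17B, CAMKV, PRKAA1, PRKAG2 or NUAK2, and 1 of the 2 was lost without CAMK1G, CAMK2D or CAMK4. Without the CAMKV and STK17B lanes together, a setting chosen after seeing the data, 0 rows were called. The mean of the negative probes, scaled in the same way as the genes, had a median of 11.05 in the 12 wells and 9.10 in the others, and a median of 10.7 without CAMKV and STK17B. Its part in the 2 calls was not tested. With counts raised to the lane's negative-control level, 40 rows were called, all higher. In that setting every count under the level is replaced by the lane's own level. Rows mostly under the level then hold nearly the same values, so the 40 calls are not separate results for 40 genes.

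The next rows by p-value were TPTE, a testis phosphatase-like protein, ATAD2, a bromodomain ATPase, and TSPYL6. ATAD2 was the only one of the first 5 that was counted well above background. Its normalized counts were 216.2 in CAMK2B, 215.3 in CAMKK1, 248.8 in CAMKV, 182.8 in CAMK1G, 168.8 in CAMK2D, 171.96 in CAMK4, 218.7 in PRKAA1, 201.4 in PRKAG2, 172.9 in NUAK2, 212.3 in STK17B, 228.5 in PIM1 and 197.8 in CALM2. The median of the other kinase wells was 176.8 and 9 of the 12 wells were above it, but the log2 difference of 0.20 ± 0.08 (SE) missed the threshold (adjusted p = 0.169, edgeR). The IMR90 controls had 184.8 and 228.9 and so spanned the level of most wells of the set.

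**Figure D2:**
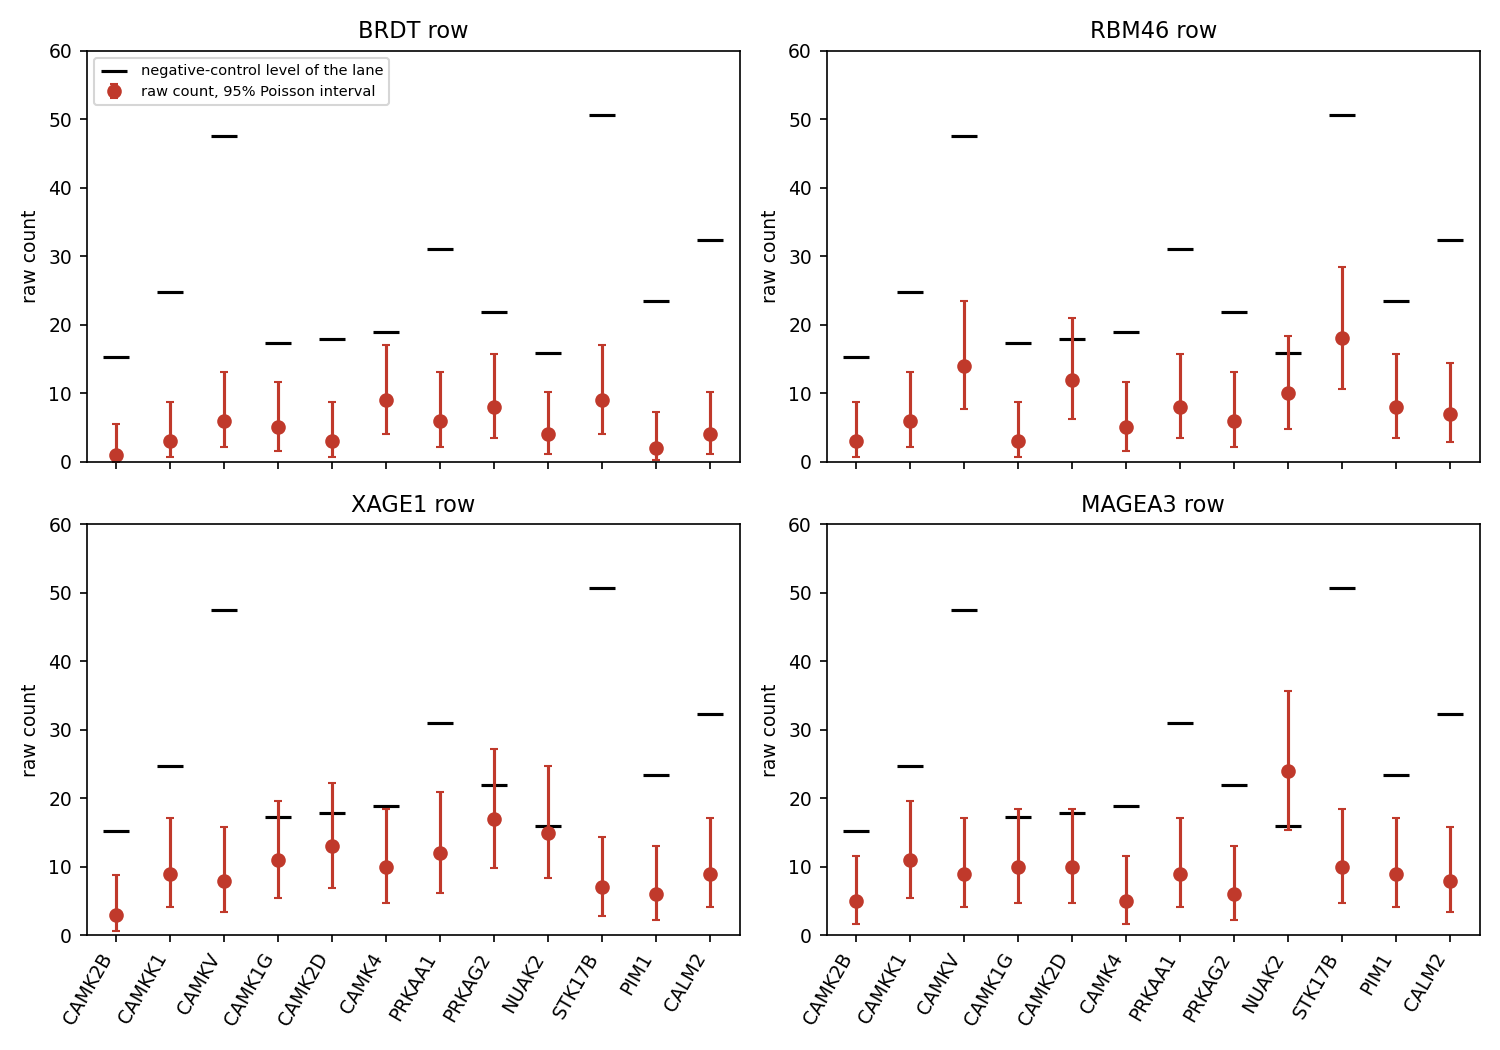
Raw counts (y axis) of the BRDT, RBM46, XAGE1 and MAGEA3 rows in each of the 12 wells (x axis), as red points with 95% Poisson intervals that cover counting error, beside the negative-control level of the same lane (black dash). Only the MAGEA3 count of NUAK2 (24) lies above the level of its lane (15.9); the levels of CAMKV and STK17B are 47.5 and 50.7.

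The second comparison set the CAMK arm against the AMPK arm. No row passed an adjusted p of 0.05 in edgeR (0 of 58, 0.0%), nor in DESeq2 or limma, and 4 rows (6.9%) had an unadjusted p under 0.05, all lower in the CAMK wells. The arms did not overlap in 1 row of 58 (1.72%), the row named Tet2. The AMPK wells held 3 members only, and an exact permutation test over the 84 choices of 3 wells among 9 cannot give a two-sided p below 0.0238.

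The row named Tet2 had normalized counts of 595 in CAMK2B, 602 in CAMKK1, 714 in CAMKV, 630 in CAMK1G, 665 in CAMK2D and 694 in CAMK4. It had 795 in PRKAA1, 887 in PRKAG2 and 770 in NUAK2. All 6 CAMK wells were thus below all 3 AMPK wells, and the CAMK wells were on the side of the other kinase wells (median 694), whereas the AMPK wells were near the controls (797 and 838). PRKAG2 was the third highest of all kinase wells used. The log2 difference was -0.33 ± 0.12 (SE), which is 0.795-fold with an interval of 0.673 to 0.940, and the adjusted p was 0.454 (edgeR, unadjusted p = 0.00782). The exact permutation p was 0.0238, the smallest it can give, and 0.690 after adjustment over the 58 rows. Against the other kinase wells, the AMPK difference was 0.24 ± 0.10 (adjusted p = 0.191, edgeR) and the CAMK difference was -0.09 ± 0.07 (adjusted p = 0.884, edgeR). The neighbouring rows, named Tet3 and Tet1, had 1749 to 1962 and 289 to 401 in the CAMK wells, and 1918 to 2260 and 315 to 348 in the AMPK wells, and were not called.

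B2M had normalized counts of 27435 in CAMK2B, 35106 in CAMKK1, 38629 in CAMKV, 29310 in CAMK1G, 35145 in CAMK2D and 32698 in CAMK4, against 38053 in PRKAA1, 46607 in PRKAG2 and 45939 in NUAK2. All 6 CAMK wells were below the median of the other kinase wells (39989). Only CAMKV exceeded the lowest AMPK well. The IMR90 controls had 34514 and 42381, so their range held 3 of the 6 CAMK wells. B2M also varied along the sample numbers. Other kinase wells numbered next to CAMK2B had 32853 and 27751, next to CAMKK1 37986 and 28742, and next to CAMK1G 26635 and 33136. CLK3 beside CAMKV had 40084, and CSNK1E beside CAMK2D had 23138. The nearest wells around PRKAG2 and NUAK2 had 48993 and 70349, and those beside PRKAA1 had 33881 and 65201. The part of sample order in the B2M differences was not tested. Compared with the AMPK arm the log2 difference was -0.40 ± 0.34 (SE; adjusted p = 0.810, edgeR), with an exact permutation p of 0.0476 and 0.690 after adjustment. Compared with the other kinase wells it was -0.41 ± 0.21 (SE), 0.753-fold with an interval of 0.566 to 1.00, with an unadjusted p of 0.0519 and an adjusted p of 0.855 (edgeR). Neither difference passed the threshold in edgeR, where the SE rests on the spread over all kinase lanes used.

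**Figure D3:**
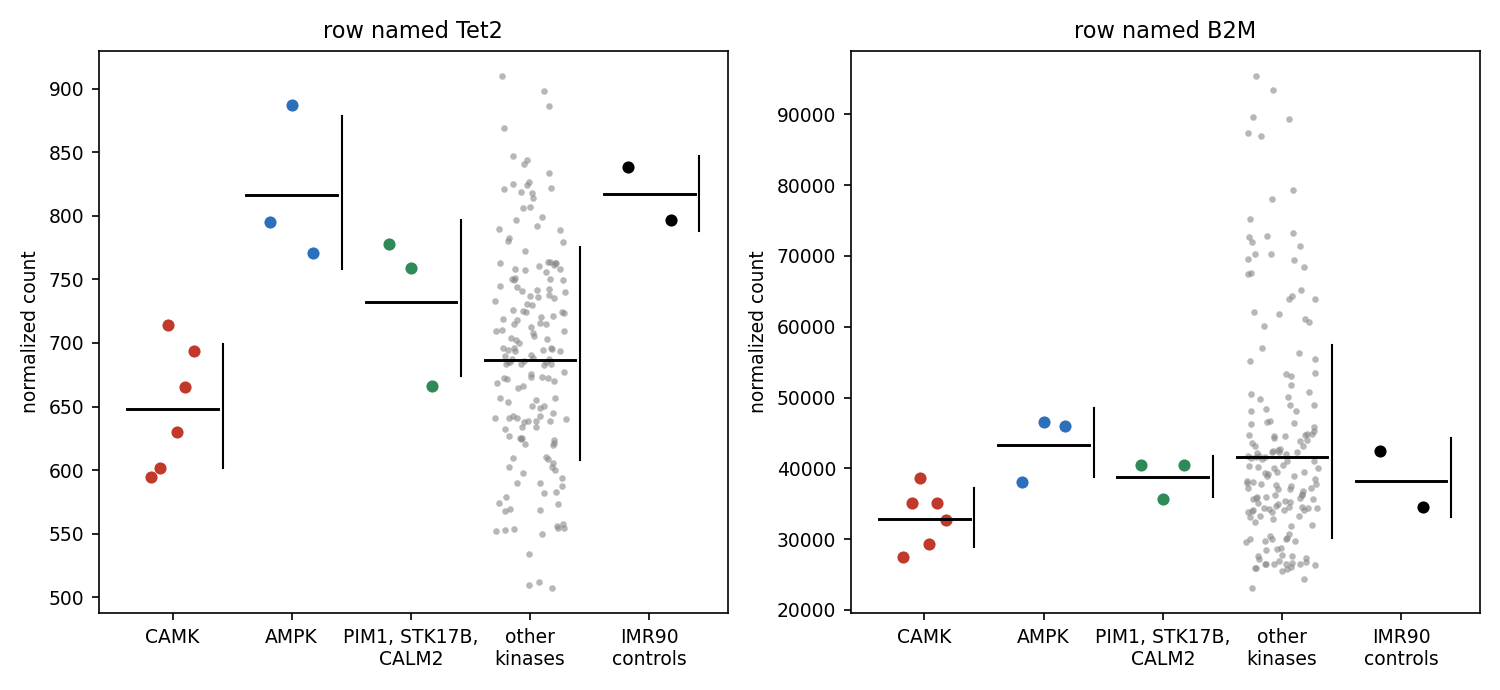
Normalized counts (y axis, not starting at 0) of the row named Tet2 (left, name in doubt) and the B2M row (right), 1 point per well, for the CAMK wells (n = 6), the AMPK wells (n = 3), PIM1, STK17B and CALM2 (n = 3), the other kinase wells and the IMR90 control lanes (n = 2). Horizontal lines are geometric means and vertical lines reach 1 SD on the log2 scale to either side; Tet2 runs from 595 to 714 in the CAMK wells and from 770 to 887 in the AMPK wells, and B2M from 27435 to 38629 and from 38053 to 46607.

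The row named KCNA1 came second by p-value. It had 34.1 in CAMK2B, 46.2 in CAMKK1, 56.3 in CAMKV, 53.2 in CAMK1G, 33.1 in CAMK2D and 60.1 in CAMK4, and 68.7 in PRKAA1, 79.4 in PRKAG2 and 52.9 in NUAK2. The arms overlapped, since NUAK2 was below 3 CAMK wells. The log2 difference was -0.50 ± 0.23 (SE; adjusted p = 0.655, edgeR). MAGEA3, XAGE1 and ASZ1, the other rows of the first 5, were within background in all 6 CAMK wells.

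Across all rows, 48 of 58 were lower and 10 higher in the CAMK wells than in the AMPK wells, with a median log2 difference of -0.24. This balance rested on NUAK2. Without that well, 30 rows were lower and 28 higher, with a median of -0.02. It also moved with the scaling, since with median-of-ratios factors 29 rows were lower and 29 higher (median 0.00). Among the 16 rows above the negative-control level in all 12 wells, 10 were lower and 6 higher, with a median of -0.04.

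The CAMK wells were also set against the other kinase wells on their own. No row was called (0 of 58, 0.0%, edgeR, DESeq2 and limma alike), and 1 row (1.72%), BRDT, had an unadjusted p under 0.05. The median log2 difference was 0.02, with 34 rows higher and 24 lower, and with positive controls only the split was 15 and 43. After BRDT and B2M, the rows with the smallest p were RBM46 (log2 difference 0.50 ± 0.29), ATAD2 (0.18 ± 0.11) and DAZL (0.44 ± 0.27), with SEs and adjusted p = 0.855 for each in edgeR. No CAMK well had a Z-score beyond 2.5 in either direction in any row. The nearest was BRDT in CAMK4, with a Z-score of 2.37 from 9 raw counts, under a negative-control level of 18.9.

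Likeness between wells was described by a distance, first for isoforms of 1 enzyme. CAMK2B and CAMK2D, both CaMKII, differed by a root mean square of 0.278 on the log2 scale over the 14 rows with a median above 100 raw counts, and 6.77% of all pairs of kinase wells were nearer. Without the ZBTB33 and ZBTB38 rows (a setting chosen after seeing the data) the distance was 0.282, and 32.3% of all pairs were nearer. The median distance over all pairs was then 0.337, against 0.252 over the 15 pairs of CAMK wells, 0.203 over the 3 pairs of AMPK wells and 0.285 over the 18 pairs of a CAMK and an AMPK well. With all 14 rows these medians were 0.623, 0.285, 1.14 and 0.774 in the same order. The AMPK pairs were thus the farthest apart with the ZBTB rows and the nearest without them. The set made up 6.56% of the kinase wells used, so for any well most candidates for the nearest lay outside the set. The nearest well to each of the 12 was a kinase outside the set in every case, with and without the ZBTB rows. For CAMKV and STK17B it was CLK3 without those rows, and these 3 carry sample numbers 34, 33 and 35. For CAMK2B it was PDK1, numbered 23 against 19, and for CALM2 it was TAOK3, numbered 53 against 55. In these 4 wells it lay in the same block of 12 sample numbers, and in the other 8 it did not, as with ACVR1 (91) for CAMKK1 (22) and PAPSS1 (48) for PRKAA1 (9). These distances are a description of single lanes.

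In the AMPK arm against the other kinase wells, 0 of 58 rows passed an adjusted p of 0.05 in edgeR (0.0%) and 8 rows (13.8%) had an unadjusted p under 0.05, all higher. Over all rows 52 were higher and 6 lower, with a median log2 difference of 0.25, but with median-of-ratios factors 26 were higher and 32 lower. Without NUAK2 the split was 34 and 24 (median 0.12). Among the 16 rows above the negative-control level in all 12 wells, 11 were higher and 5 lower, with a median of 0.050. Among the other 42 rows, 41 were higher and 1 lower, with a median of 0.357. In all 3 AMPK wells the scaled mean of the negative probes was above 9.10, the median of the other kinase wells. Its part in the AMPK differences was not tested. XAGE1, a cancer/testis antigen, came first. It had raw counts of 12 in PRKAA1, 17 in PRKAG2 and 15 in NUAK2, all under the negative-control levels of these lanes (31.03, 21.9 and 15.9), and a log2 difference of 1.12 ± 0.34 (SE; adjusted p = 0.0627, edgeR). MAGEA3, another such antigen, had 9, 6 and 24 raw counts and a log2 difference of 0.97 ± 0.31 (SE; adjusted p = 0.0627, edgeR). BRDT followed with 1.11 ± 0.38 (SE; adjusted p = 0.0743, edgeR) and C9orf11, a sperm acrosome protein, with 0.87 ± 0.35 (SE; adjusted p = 0.190, edgeR). DESeq2 called BRDT, MAGEA3 and XAGE1. Leaving out PRKAA1 gave 2 calls in edgeR (MAGEA3 and XAGE1), and leaving out PRKAG2 gave 1 (MAGEA3).

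Single wells were described by Z-scores, in SDs from the mean of the other kinase wells on log2(normalized count + 1), with the threshold of 2.5 and no test. Of 696 pairs of a well and a row in the 12 wells, 2 were above 2.5 (0.287%), against 39 of 9918 pairs (0.393%) in the other kinase wells. At a threshold of 3.5 it was 1 pair (0.144%) against 3 (0.0302%). Likewise 2 were below -2.5 (0.287%), against 86 of 9918 (0.867%). At 2.5 the share of extreme pairs was thus no higher than in the rest of the screen.

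The highest pair was MAGEA3 in NUAK2, with a Z-score of 3.52. It rested on 24 raw counts, with a 95% Poisson interval of 15.4 to 35.7, against a negative-control level of 15.9, and was the highest MAGEA3 value of all kinase wells used at 34.3 normalized counts. The other kinase wells had 1.18 to 20.8 normalized counts. The other AMPK wells had 8.13 (PRKAA1) and 9.16 (PRKAG2), and the controls 4.86 and 5.09. NUAK2 was high over many rows, with a median Z-score of 1.22 over the 58, whereas the medians of the other 11 wells were between -0.51 and 0.71. It stood highest of all kinase wells in TSPYL6 as well, from 18 raw counts (Z-score 2.27), and next to highest in TPTE (Z-score 2.47) and TKTL2 (Z-score 2.32). The second pair above 2.5 was BRDT in PRKAG2, with a Z-score of 2.66 from 8 raw counts (Poisson interval 3.45 to 15.8) under a negative-control level of 21.9, so it cannot be told from background. PRKAG2 also had the highest values of all kinase wells used in STK31, MAGEA4 and MAGEB6, from 17, 22 and 19 raw counts, and only MAGEA4 exceeded the level of the lane.

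**Figure D4:**
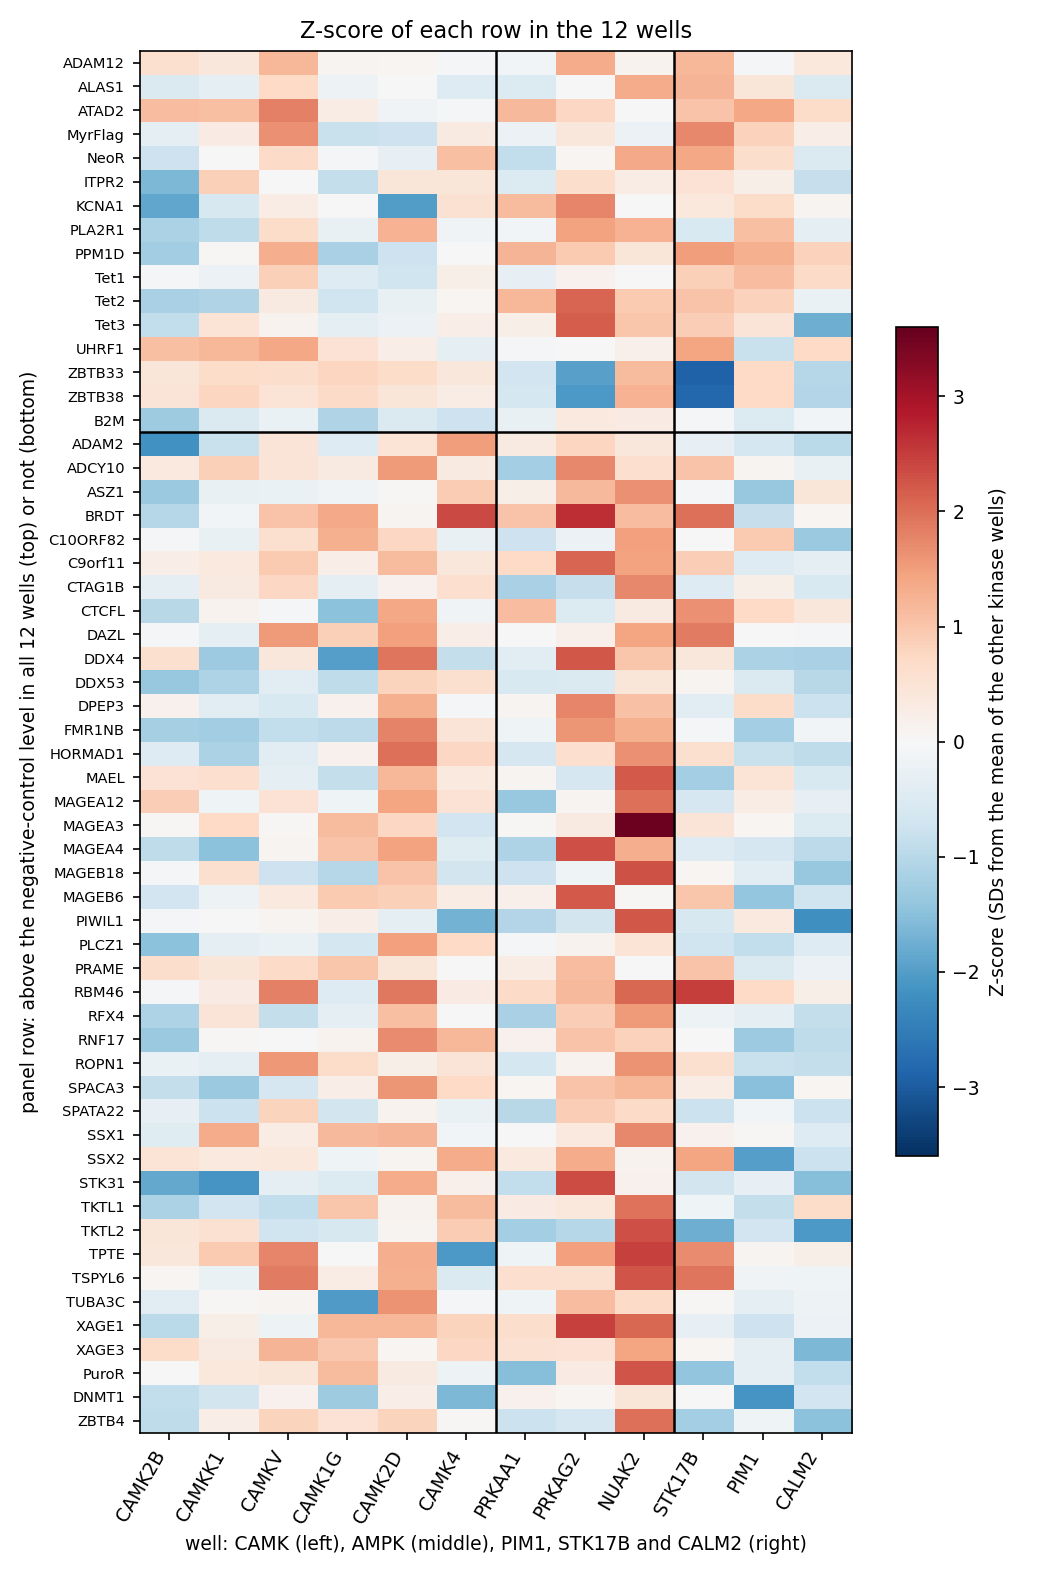
Z-scores of the 58 rows (y axis, under the names in the files) in the 12 wells (x axis), as SDs from the mean of the other kinase wells, red for higher and blue for lower; vertical lines part the CAMK wells, the AMPK wells and PIM1, STK17B and CALM2, and the horizontal line parts the 16 rows above the negative-control level in all 12 wells from the other 42. The NUAK2 column is red through the lower block, where MAGEA3 reaches 3.52, and STK17B has the lowest values, at -2.91 and -2.84 in ZBTB33 and ZBTB38.

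Each well had its own highest and lowest row. In the CAMK arm the highest Z-scores were 1.11 for ATAD2 in CAMK2B, 1.34 for SSX1 in CAMKK1, 1.86 for TSPYL6 in CAMKV, 1.37 for BRDT in CAMK1G and 1.99 for HORMAD1 in CAMK2D, beside the value of CAMK4 given above. The lowest were -2.18 for ADAM2 in CAMK2B, -2.12 for STK31 in CAMKK1, -0.89 for FMR1NB in CAMKV, -2.03 for TUBA3C in CAMK1G, -2.01 for KCNA1 in CAMK2D and -2.07 for TPTE in CAMK4. No row was the highest or the lowest of more than 1 CAMK well, apart from BRDT, which was the highest of both CAMK1G and CAMK4. PRKAA1, the catalytic AMPK subunit, ran from -1.54 in PuroR to 1.22 in PPM1D. CALM2, which delivers calmodulin and no kinase domain, ran from -2.19 in PIWIL1 to 0.82 in PPM1D, and its median of -0.51 was the lowest of the 12. PIM1 ran from -2.13 in DNMT1 to 1.39 in ATAD2. STK17B came just under the threshold in RBM46, with a Z-score of 2.497 from 18 raw counts.

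The panel has few genes tied to calcium or to energy supply. Of a list of 5, no row was called in any of the 4 comparisons, and no row of it had an unadjusted p under 0.05. Across the 12 wells 3 were higher and 2 lower than in the other kinase wells, with a median log2 difference of 0.01 beside 0.05 over all rows. ALAS1, the rate-limiting enzyme of heme synthesis, was the only one counted above background in every well. Its normalized counts were 445 in CAMK2B, 457 in CAMKK1, 541 in CAMKV, 469 in CAMK1G, 482 in CAMK2D and 450 in CAMK4, then 446 in PRKAA1, 485 in PRKAG2 and 597 in NUAK2, and 588 in STK17B, 518 in PIM1 and 445 in CALM2. The other kinase wells had a median of 480 and the controls 444 and 527. The AMPK wells differed from the CAMK wells by less than the spread between wells (CAMK minus AMPK, log2 difference -0.10 ± 0.16 (SE), an interval of 0.750 to 1.16-fold, adjusted p = 0.990, edgeR).

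PLCZ1, the sperm phospholipase that sets off calcium waves in the egg, was above the negative-control level in 4 of the 12 wells. Its raw counts were 10 to 42 in the CAMK wells, highest in CAMK2D, 19 to 30 in the AMPK wells and 22 to 29 in the other 3. ADCY10, the soluble adenylyl cyclase that responds to bicarbonate and calcium, was above the level in 1 well, CAMK2D, with 18 raw counts against 17.9. TKTL1, a transketolase-like protein, was above it in NUAK2 only, with 16 raw counts against 15.9, and TKTL2 in none.

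The tissue-restricted rows were then grouped by function, with the lists chosen while results of these data were known. Of 12 cancer/testis antigens, 9 were fitted higher and 3 lower in the 12 wells and none was called, with a median log2 difference of 0.13. Of 6 germ cell RNA-binding and piRNA genes, 4 were fitted higher and 2 lower, none called, with a median of 0.05. Of 7 genes of meiosis, chromatin and transcription, 5 were higher and 2 lower, and BRDT was called (median 0.16). Of 7 sperm genes 4 were higher and 3 lower (median 0.05), and of 6 enzymes 5 were higher and 1 lower (median 0.09), with no call in either list. Over all 58 rows 41 were higher and 17 lower, with a median of 0.05. With positive controls only, 11 of the 58 were higher and 47 lower, so the sign of these small differences followed the scaling.

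ADAM12, a metalloprotease of mesenchymal cells, was above the negative-control level in all 12 wells. It had 53.6 normalized counts in CAMK2B, 51.1 in CAMKK1, 64.5 in CAMKV, 46.7 in CAMK1G, 46.3 in CAMK2D and 44.8 in CAMK4. It had 44.3 in PRKAA1, 67.1 in PRKAG2, 47.2 in NUAK2, 64.6 in STK17B, 44.98 in PIM1 and 50.7 in CALM2. Wells of other kinases had 26.2 to 504 (median 44.5). Of the 12 wells, 11 were above that median and PRKAA1 was just under it, but the log2 difference was 0.09 ± 0.16 (SE; adjusted p = 0.918, edgeR), with an interval of 0.862 to 1.32-fold. The mean of log2(normalized count + 1) was 5.72 in the 12 wells and 5.54 in the others, farther apart than the fitted difference. The weight of the well with 504 in the fit was not tested.

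Outside the tissue-restricted genes, a list held 9 of the rows whose names are in doubt (DNMT1, PPM1D, Tet1, Tet2, Tet3, UHRF1, ZBTB4, ZBTB33 and ZBTB38). Of these, 6 were fitted higher and 3 lower in the 12 wells, none called, with a median log2 difference of 0.026. The row named UHRF1 had 733 to 1034 normalized counts in the CAMK wells, 780 to 815 in the AMPK wells, 673 in PIM1, 907 in CALM2 and 1038 in STK17B, against a median of 796 in the other kinase wells and 684 and 997 in the controls. The row named PPM1D had 105.7 in CAMK2B, 147.5 in CAMKK1, 203.4 in CAMKV, 107.6 in CAMK1G, 120.2 in CAMK2D and 146.05 in CAMK4, and 162.9 to 213.3 in the other 6 wells. Of the CAMK wells, 5 were below the lowest of those 6, and CAMKV was within their range. The CAMK wells were not tested against those 6 together. Against the AMPK wells the log2 difference was -0.39 ± 0.25 (SE; adjusted p = 0.810, edgeR). Against the other kinase wells it was -0.11 ± 0.15 (SE; adjusted p = 0.997, edgeR).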

How the data were processed

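IMR90 cells had been infected with a retrovirus per kinase and RNA was counted on Nanostring cartridges. The deposited counts are raw counts per probe and lane, with no normalization by the authors. The authors also deposited a table of normalized signal, which is each lane's counts times 1 constant (largest relative spread 2.08e-15), except for 8 lanes that were left unscaled (6 of reference RNA, HK1 and PIP5K2A). It was used as an alternative. Software versions of the authors' counting are not given in the sources used here.

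Here, counts were multiplied by lane factors from 6 positive controls (geometric mean) and next from PGK1, TBP and TUBB2A. The main test was edgeR's quasi-likelihood test (4.0.16, R 4.3.3) with these factors as offsets, over 57 endogenous rows and B2M, with Benjamini-Hochberg adjustment at 0.05. Of 197 lanes, 183 were kinase lanes used here (12 of the set and 171 others), and all entered the fit, as a pair of groups for the 12 wells and as 4 groups for the contrasts of CAMK and AMPK wells. Alternatives were DESeq2 (1.42.0), limma (3.58.1), other scalings, a filter, a floor at the negative-control level, blocks of 12 sample numbers and lanes left out. Z-scores used log2(normalized count + 1), a pseudocount of 1, and the mean and SD of 171 lanes. Exact permutation tests used scipy (1.17.1). Fits were tested on simulated data with planted changes of 4-fold only. The differences fitted here were smaller, so the simulation does not bear on calls of their size. A second lane named for IMR90 control number 2 may hold another sample and was left out of the control values. Rows named in the text are, for each comparison, the called rows and the 5 with the smallest p, all pairs beyond a Z-score of 2.5, and rows fixed by name; others are said to have been chosen later. The members and lists were chosen with earlier results of these data known. Row names are those of the files, and those of 15 rows are in doubt.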

Additional observations from a re-analysis of the deposited data

Results flagged for a closer look

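The negative-control probe NEG_H, which matches no human transcript and enters the comparisons only through the negative-control level, had raw counts of 52 in the CAMKV well and 53 in the STK17B well, against 1 to 4 in the IMR90 control lanes. The 11 kinase lanes numbered 25 to 35, which include these wells, had 44 to 71, and the other kinase lanes had 1 to 22. Without all lanes numbered 25 to 36, a setting chosen after seeing the data, no row was called for the 12 wells and 4 rows (BRDT, MAGEA3, TPTE and XAGE1) were called for the AMPK wells against other kinases. Among the 6 CAMK wells, no well stood apart from the others by Dixon's test (critical value 0.625) in any of the 23 rows examined.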

How the results depend on the processing

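For the 12 wells against other kinases, the 2 calls became 0 with limma, TMM factors, median-of-ratios factors, positive controls only, the authors' table, the filter on rows above the negative-control level, blocks of sample numbers, without the CAMKV and STK17B lanes and without lanes 25 to 36, and 40 with the floor. Leaving out 1 well gave 0 to 2. For the AMPK wells, 0 calls became 3 with DESeq2, 1 without the PIP5K2A lane and 4 without lanes 25 to 36, and 0 to 2 when 1 well was left out. CAMK wells had 0 calls against either group under every alternative run. Pairs above a Z-score of 2.5 numbered 1 with a pseudocount of 0.5 and at a threshold of 3.5, 11 with a pseudocount of 5, 6 with the median absolute deviation and with centred blocks, 4 with the authors' table and without PIP5K2A, and 77 with the floor. Pairs below -2.5 numbered 4 with the median absolute deviation, 15 with positive controls only, 5 with centred blocks and 0 at 3.5. MAGEA3 in NUAK2 had Z-scores from 1.84 (floor) to 4.14 (pseudocount of 5). The floor puts the lane's own level into rows under it, as said above. The cause of the other changes was not tested.

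Some small log2 differences changed sign. In the 12 wells against others, ADAM12 was -0.030 (TMM), -0.021 (median-of-ratios), -0.10 (positive controls) and -0.13 (blocks). ALAS1 was -0.087, -0.077 and -0.16 under the first 3 of these, -0.015 (without NUAK2) to 0.025 when 1 well was left out, -0.030 without CAMKV and STK17B, and -0.017 without lanes 25 to 36. MAGEA3 in CAMK against AMPK wells ran from -1.19 (without PRKAA1) to 0.15 (without NUAK2). In CAMK wells against others, RBM46 was -0.032 with blocks and ATAD2 was -0.031 with positive controls, and in AMPK wells against others the row named Tet2 was -0.044 with median-of-ratios factors. CAMK and AMPK wells shared no block, and block 17 held only CAMK2D and CAMK4, so that with blocks the CAMK arm rested on 4 wells. The blocks are a cut of the sample numbers, and block 17 is the end of that cut. In the order of the deposited samples, CAMK2D and CAMK4 stand beside wells of other kinases. The labels name no cartridge or run, so the blocks are not an adjustment for either. No paired analysis was possible because the kinase wells carry no replicate numbers. With 1 lane per kinase and most tissue-restricted rows within background, small differences in those rows may go undetected at this depth.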

Other observations

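The row named PLA2R1 (name in doubt) belongs to no list and was picked after its values had been seen. It had 431 to 616 normalized counts in the CAMK wells, 503 to 633 in the AMPK wells and 471 to 599 in PIM1, STK17B and CALM2, around a median of 519 in the other kinase wells.

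The second lane with the name of IMR90 control number 2 had 814 in the row named Tet2, 36811 in B2M and 13.4 in the row named ZBTB33. In the row named ZBTB38 it had 1774, against 7039 in the first lane of that name.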
